A study of Mus musculus with 11 samples.

Results

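Nr4a1, Nr4a2, Nr4a3, Egr1, Egr2, Egr3, Cd69 and Cd5 are read in thymocytes as a record of signalling through the T cell receptor (TCR). They are 8 of the 54418 genes counted in RNA-seq of mouse thymocytes, which are T cells still maturing in the thymus. The 8 were chosen by their known place in TCR signalling and found in the counts by gene name. No threshold on a value picked them, but earlier genotype differences of these 11 libraries, the contrasts used below, were known when they were listed. Their p-values below are therefore descriptions taken from a test of all genes, not independent support. The 11 libraries came from 4 wt mice, 4 Zmat3-/- mice and 3 Puma-/-p21-/-Zmat3-/- mice (TKO, bred by intercrossing Zmat3-/- with Puma-/-p21-/- mice), all on a C57BL/6-WEHI background and 8 to 12 weeks old. Both knockouts lacked Zmat3, which encodes an RNA-binding protein. The TKO mice lacked in addition Puma, a gene that drives apoptosis, and p21, a gene that halts the cell cycle. Each library held the thymocytes of 1 mouse. The comparisons asked whether the Nr4a and Egr genes moved together when Zmat3 was lost, alone or with Puma and p21.

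A TCR that binds peptide and MHC on a neighbouring cell sends calcium, which acts through calcineurin, NFAT and MEF2, and also sends RAS and ERK, which act through SRF and its ELK partners. The Nr4a genes encode orphan nuclear receptors that respond to the calcium branch and to cAMP, among other signals. The Egr genes encode zinc finger transcription factors that respond to ERK, among other signals. Both families are immediate-early genes: their RNA appears quickly after a signal and is soon lost. In the thymus, Nr4a1 is known for marking strong signals and negative selection, the Egr genes for positive selection, Cd69 for thymocytes that have just been selected, and Cd5 for a level that is set by the strength of the TCR signal and that restrains it.

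RefSeq sequences before the annotated starts (GRCm38.p6) were found for 5 of the 8 genes, and not for Egr1, Egr3 or Cd69. Those of the Nr4a genes and of Egr2 are shown because the families differed in the counts. Egr2 is the only Egr gene among them, so the families were not compared in sequence. Capitals mark matches to TGACG, the core of the cAMP response element (CRE) that CREB binds, read on either strand (CGTCA on the other). In Nr4a1 and Nr4a2 they also mark a match to GCGNGGGCG, the site that EGR proteins bind, and in Nr4a2 a MEF2 site. In Egr2 they also mark a CArG box, which SRF binds. The Nr4a1 stretch is chr15:101266596-101266845 on the + strand, upstream of a start inside the annotated gene:
Nr4a1: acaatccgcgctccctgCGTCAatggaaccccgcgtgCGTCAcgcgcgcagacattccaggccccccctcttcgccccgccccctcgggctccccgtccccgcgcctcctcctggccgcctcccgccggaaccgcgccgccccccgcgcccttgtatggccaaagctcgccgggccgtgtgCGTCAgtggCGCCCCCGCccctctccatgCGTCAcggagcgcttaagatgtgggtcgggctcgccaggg
The Nr4a2 stretch is chr2:57124004-57124253, read on the - strand:
Nr4a2: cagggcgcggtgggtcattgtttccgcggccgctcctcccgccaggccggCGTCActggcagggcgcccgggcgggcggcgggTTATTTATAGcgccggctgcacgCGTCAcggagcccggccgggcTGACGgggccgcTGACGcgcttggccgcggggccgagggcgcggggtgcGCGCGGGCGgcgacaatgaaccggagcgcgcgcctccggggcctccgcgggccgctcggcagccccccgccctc
The Nr4a3 stretch is chr4:48045055-48045152 on the + strand, and it ends where the annotated gene begins:
Nr4a3: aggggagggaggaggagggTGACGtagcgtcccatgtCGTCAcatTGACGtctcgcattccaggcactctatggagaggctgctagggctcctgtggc
The Egr2 stretch is chr10:67537619-67537868 on the + strand, before 1 of the 5 starts that RefSeq gives this gene:
Egr2: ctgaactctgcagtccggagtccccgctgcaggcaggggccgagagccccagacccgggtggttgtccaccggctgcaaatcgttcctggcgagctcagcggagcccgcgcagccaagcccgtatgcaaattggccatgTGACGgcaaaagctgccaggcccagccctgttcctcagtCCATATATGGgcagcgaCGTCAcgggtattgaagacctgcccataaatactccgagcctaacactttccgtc

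In the 250 bases before the start, Nr4a1, Nr4a2 and Nr4a3 each held 4 TGACG matches, the last of Nr4a3 lying beyond its printed stretch. Of 32851 RefSeq windows of this length, 17.8% held at least 1 such match and 0.137% held at least 4. This start of Egr2 held 2 matches, where 3.9% of windows held at least 2, on both sides of a CArG box (CCATATATGG, 72 to 63 bases before the start), a motif found in 1.47% of windows. Of the other 4 Egr2 starts, 2 lie close by and share these matches, and 2 hold no TGACG match. The EGR site of Nr4a1 and Nr4a2 was found in 4.7% of windows and the MEF2 site of Nr4a2 in 1.69%. The full CRE (TGACGTCA, which holds the core on both strands) and the site that NR4A proteins bind as monomers (AAAGGTCA) matched in none of the 5 genes, against 1.55% and 1.34% of windows. The Cd5 window held none of the 6 motifs. A match gives letters, not binding.

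**Figure D1:**
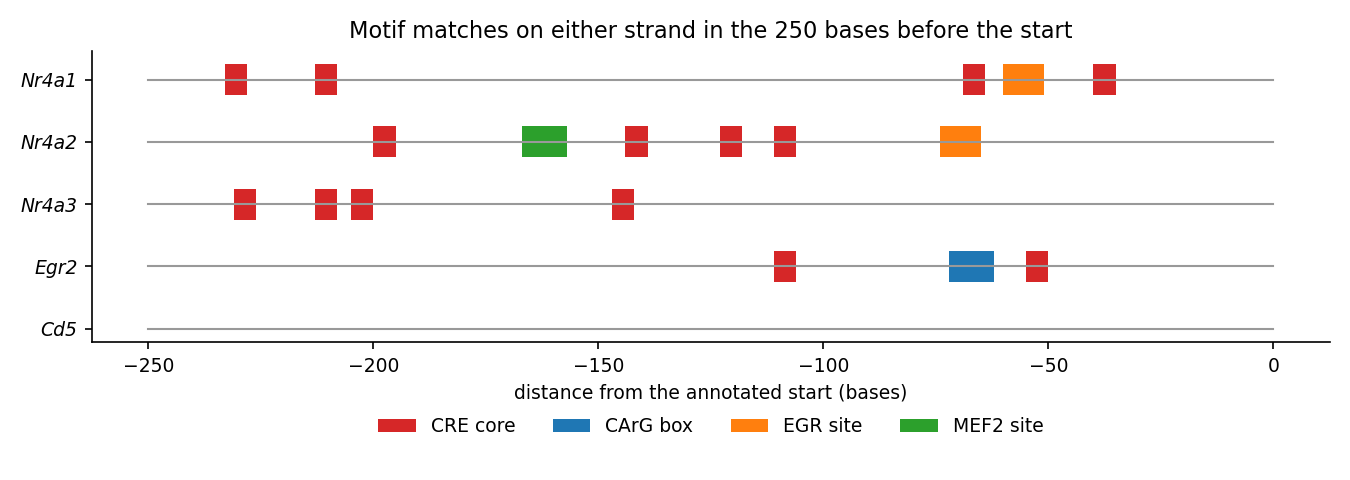
Motif matches in the 250 bases before the RefSeq start of Nr4a1, Nr4a2, Nr4a3, Egr2 and Cd5 (x axis: distance from the start in bases; coloured boxes: matches on either strand; Egr2: the start printed in the text). The 3 Nr4a genes each carry 4 CRE cores and Egr2 carries 2 with a CArG box between them.

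The 11 libraries held 17669715 to 80207003 counts, and the smallest count of any of the 8 genes in any mouse was 56 (Nr4a2 in wt mouse 4). The wt libraries fell into 2 pairs. Across 12957 genes, log2 CPM (counts normalised to library size) correlated at 0.983 between wt mice 1 and 2 and at 0.984 between wt mice 3 and 4, but at 0.89 to 0.923 between the pairs, against 0.972 to 0.992 within the knockout genotypes. Xist, the RNA of the inactive X chromosome in female cells, followed the same split: 485 and 632 CPM in wt mice 1 and 2 against 1.83 and 2.83 CPM in wt mice 3 and 4. It was at 1080 and 1390 CPM in Zmat3-/- mice 1 and 2 and 0.931 and 0.912 CPM in Zmat3-/- mice 3 and 4, and at 1520, 2.15 and 0.748 CPM in TKO mice 1 to 3. The wt pairs thus differed in sex by this RNA, and same-numbered wt and Zmat3-/- mice shared it. Among wt mice, the split and sex therefore cannot be told apart. Zmat3-/- mice high in Xist correlated with those low in it at 0.986 to 0.987. TKO mouse 1 correlated with TKO mice 2 and 3 at 0.985 and 0.981. What set the wt pairs apart was not tested. Rag1, a gene of immature thymocytes, had 1480 and 2150 CPM in wt mice 1 and 2 and 5330 and 5010 in wt mice 3 and 4. The targeted genes kept reads, and the sources used here do not give the deleted exons. Zmat3 had 9.14 and 11.7 CPM in wt mice 1 and 2, 27.1 and 27.2 CPM in wt mice 3 and 4, 5.41 to 6.95 CPM in Zmat3-/- mice and 7.68 to 8.2 CPM in TKO mice. Every knockout mouse was below every wt mouse, by little for TKO mice against wt mouse 1. In TKO against wt mice, Bbc3 (Puma) had 12.2 to 15.9 against 17.0 to 19.2 CPM, and Cdkn1a (p21) 2.31 to 3.59 against 3.57 to 9.93 CPM, with TKO mouse 1 above wt mouse 3. Because the wt mice were split, the results are also given without each wt pair, an alternative chosen after the data were seen.

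Nr4a1 lies on chr15:101254269-101274795 of GRCm38, Nr4a2 on chr2:57106830-57124003 and Nr4a3 on chr4:48045153-48086447. Egr1 lies on chr18:34859823-34864984, Egr2 on chr10:67535475-67542188 and Egr3 on chr14:70077203-70082614. Cd69 lies on chr6:129267325-129275436 and Cd5 on chr19:10717116-10739002. These GENCODE spans hold exons and introns, and the counts are of the transcripts. No other annotated gene overlaps any of the 8, which lie on 8 chromosomes.

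Below, a level is in CPM, scaled by TMM factors, and a difference is edgeR's log2 fold change (log2FC). A gene passed at a Benjamini-Hochberg adjusted p under 0.05 in edgeR's quasi-likelihood test over all tested genes. All 8 genes passed the filter on low counts in every comparison, and p-values measure the spread between these mice. Zmat3-/- and TKO mice were compared with the same 4 wt mice, so these comparisons share their controls. In RNA from bulk thymocytes, fewer cells of a type and less RNA per cell cannot be told apart.

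The 3 Nr4a genes had higher means without Zmat3, and 2 of the 3 passed in both knockouts in the fit without pairing. With replicate number as a block, neither passed: in Zmat3-/- mice, where the numbers were taken as pairs, the edgeR adjusted p was 0.0511 for Nr4a1 and for Nr4a2. Nr4a1 stood at 97.1, 108, 77.6 and 83.3 CPM in wt mice 1 to 4. It stood at 230, 223, 172 and 213 CPM in Zmat3-/- mice 1 to 4 and at 210, 219 and 214 CPM in TKO mice 1 to 3. Every knockout mouse was above every wt mouse, and the lowest knockout mouse, Zmat3-/- mouse 3, still exceeded the highest wt mouse. Nr4a1, which encodes NUR77, rose 2.19-fold in Zmat3-/- mice (log2FC 1.13, SE 0.149, edgeR adjusted p = 0.0191) and 2.22-fold in TKO mice (log2FC 1.15, SE 0.158, edgeR adjusted p = 0.0354).

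Nr4a2, which encodes NURR1, had the largest difference of the 8. Its levels in wt mice 1 to 4 were 2.5, 2.59, 2.85 and 2.19 CPM. In Zmat3-/- mice 1 to 4 they were 11.8, 12.0, 10.8 and 16.1 CPM, and in TKO mice 1 to 3 they were 15.6, 11.2 and 10.1 CPM. The wt mice lay close together and far below all 7 knockout mice, while the knockout mice varied more among themselves. Nr4a2 rose 4.78-fold in Zmat3-/- mice (log2FC 2.26, SE 0.179, edgeR adjusted p = 0.00139) and 4.62-fold in TKO mice (log2FC 2.21, SE 0.228, edgeR adjusted p = 0.00859). It was the only 1 of the 8 that also passed an absolute log2FC of 1.5, the study's threshold for a differentially expressed gene, which 0.319% of genes passed in Zmat3-/- and 0.241% in TKO against wt mice.

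Nr4a3, which encodes NOR1, differed less and did not pass in the main fit. Its levels were 14.7, 19.4, 19.3 and 23.4 CPM in wt mice 1 to 4. They were 31.7, 30.2, 23.9 and 30.7 CPM in Zmat3-/- mice 1 to 4, and 22.4, 33.4 and 26.8 CPM in TKO mice 1 to 3. All Zmat3-/- mice were above all wt mice, by a margin of less than 1 CPM for Zmat3-/- mouse 3, and TKO mouse 1 fell below wt mouse 4. The log2FC was 0.54 (SE 0.148, edgeR adjusted p = 0.131) in Zmat3-/- mice and 0.45 (SE 0.192, edgeR adjusted p = 0.478) in TKO mice. DESeq2 (adjusted p = 0.0181) and edgeR with 1 surrogate variable (adjusted p = 0.00395) called it in Zmat3-/- mice, and neither did in TKO mice (0.327 and 0.113).

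**Figure D2:**
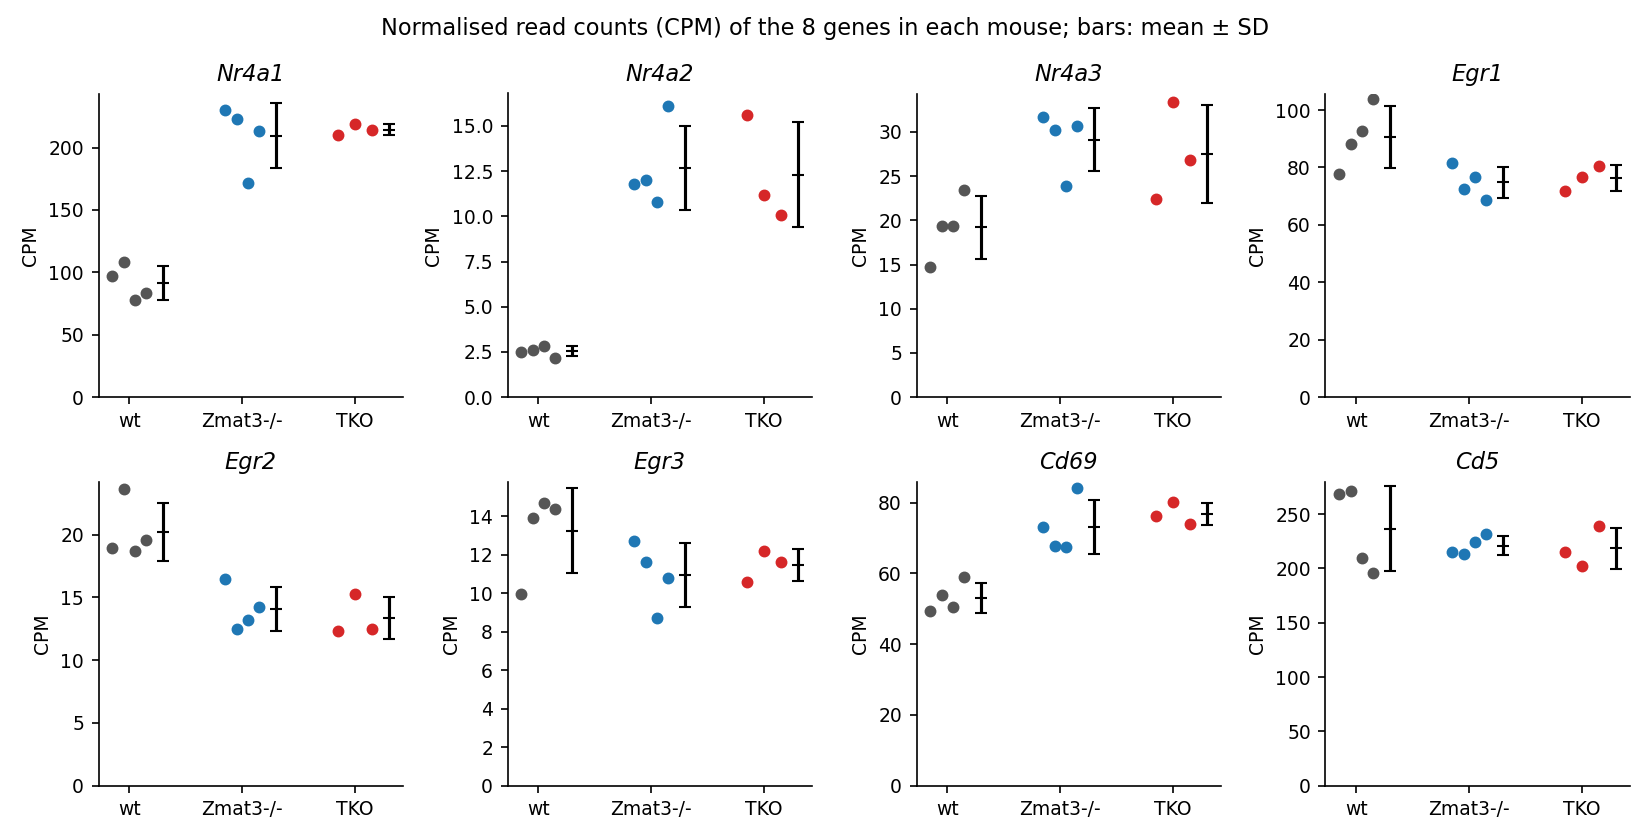
Levels of the 8 genes (y axes: CPM, from 0) in each of the 11 mice by genotype, with mean ± SD beside the points. Nr4a1, Nr4a2 and Cd69 are above all wt mice in all 7 knockout mice and Egr2 is below all of them, while Egr1, Egr3 and Cd5 overlap.

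The Egr genes had lower means without Zmat3, and none of the 3 passed in edgeR's main fit. Egr1 stood at 77.6, 88.3, 92.7 and 104 CPM in wt mice 1 to 4. It stood at 81.5, 72.6, 76.6 and 68.7 CPM in Zmat3-/- mice 1 to 4 and at 71.8, 76.7 and 80.5 CPM in TKO mice 1 to 3. The lowest wt mouse lay within the range of both knockouts. For Egr1, which encodes a factor needed for efficient positive selection, the log2FC was -0.34 (SE 0.0992, edgeR adjusted p = 0.15) in Zmat3-/- mice and -0.32 (SE 0.123, edgeR adjusted p = 0.435) in TKO mice.

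Egr2, which acts with Egr1 and Egr3 in thymocytes, was the Egr gene whose genotypes separated. It had 18.9, 23.6, 18.7 and 19.6 CPM in wt mice 1 to 4. In Zmat3-/- mice 1 to 4 it had 16.5, 12.5, 13.2 and 14.2 CPM, and in TKO mice 1 to 3 it had 12.3, 15.3 and 12.5 CPM. All 7 knockout mice were below all 4 wt mice. In the main fit the log2FC was -0.58 (SE 0.127, edgeR adjusted p = 0.0856) in Zmat3-/- mice and -0.67 (SE 0.16, edgeR adjusted p = 0.241) in TKO mice. Other fits called Egr genes lower: DESeq2 called Egr1 (adjusted p = 0.0234) and Egr2 (0.00125) in Zmat3-/- mice and Egr2 (0.00677) in TKO mice. With 1 surrogate variable edgeR called Egr1 and Egr2 in both knockouts (adjusted p = 0.00124 and 0.00158, and 0.0175 and 0.0126), and with all 11 mice in 1 fit it called Egr2 in TKO mice (adjusted p = 0.0462).

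Egr3 stood at 9.98, 13.9, 14.7 and 14.4 CPM in wt mice 1 to 4. It stood at 12.7, 11.6, 8.72 and 10.8 CPM in Zmat3-/- mice 1 to 4 and at 10.6, 12.2 and 11.6 CPM in TKO mice 1 to 3. Wt mouse 1 was low and lay among the knockout mice, and the other 3 wt mice were above all of them. The log2FC was -0.33 (SE 0.158, edgeR adjusted p = 0.348) in Zmat3-/- mice and -0.28 (SE 0.166, edgeR adjusted p = 0.593) in TKO mice.

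The 2 surface markers differed in pattern, but neither passed in edgeR's main fit and the difference between them was not tested. Cd69, whose protein holds freshly selected thymocytes in the thymus, stood at 49.3, 53.9, 50.4 and 58.9 CPM in wt mice 1 to 4. It stood at 73.2, 67.8, 67.6 and 84.1 CPM in Zmat3-/- mice 1 to 4 and at 76.2, 80.3 and 74.0 CPM in TKO mice 1 to 3. Every knockout mouse was above every wt mouse. The log2FC was 0.40 (SE 0.105, edgeR adjusted p = 0.121) in Zmat3-/- mice and 0.46 (SE 0.115, edgeR adjusted p = 0.274) in TKO mice. DESeq2 (adjusted p = 0.00986 and 0.00239) and edgeR with 1 surrogate variable (adjusted p = 0.00305 and 0.0105) called it in both knockouts.

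Cd5, an inhibitory receptor of T cells, overlapped between all genotypes. It had 269, 271, 210 and 196 CPM in wt mice 1 to 4. In Zmat3-/- mice 1 to 4 it had 215, 213, 224 and 232 CPM, and in TKO mice 1 to 3 it had 215, 202 and 239 CPM. The wt mice were split as the libraries were, with wt mice 1 and 2 above all knockout mice and wt mice 3 and 4 below most of them. The log2FC was -0.17 (SE 0.144, edgeR adjusted p = 0.592) in Zmat3-/- mice and -0.19 (SE 0.179, edgeR adjusted p = 0.692) in TKO mice. The sign rested on wt mice 1 and 2: without them the log2FC was 0.09 and 0.07 (edgeR adjusted p = 0.295 and 0.631), and without wt mice 3 and 4 it was -0.40 and -0.41 (edgeR adjusted p = 0.00144 and 0.0181).

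In Zmat3-/- against wt mice, 2 of the 8 genes passed, against 0.763% of the 13494 genes tested, 6 had an unadjusted p under 0.05, against 16.1%, and 5 of the 8 did not overlap between the genotypes, against 14.7%. In TKO against wt mice, 2 of the 8 passed, against 0.294% of 13260 genes, 6 had an unadjusted p under 0.05, against 10.3%, and 4 did not overlap, against 13.9%. The members were chosen with these results known, so the shares stand only as background. DESeq2 called 6 and 4 of the 8, when it called 8.04% and 2.87% of genes, and edgeR with 1 surrogate variable 6 and 5, when 37.7% and 14% of genes passed. Replicate number, taken as a block in edgeR, ended both calls, with 0 of the 8 passing in either knockout when 0.0889% and 0.121% of genes did, and in Zmat3-/- mice the blocked log2FC was 1.14 for Nr4a1 and 2.24 for Nr4a2. With the Xist level as a covariate edgeR called 2 of the 8 in each, Nr4a1 and Nr4a2, when 1.42% and 0.392% of genes passed. With all 11 mice in 1 fit it called 2 and 3, when 1.77% and 1.63% did. Nr4a1 also lost its call in Zmat3-/- mice without wt mouse 3 or 4 or Zmat3-/- mouse 1, 2 or 4 (edgeR adjusted p = 0.05 to 0.0973). In TKO mice, Nr4a1 lost its call without any 1 of the mice except wt mouse 1 (edgeR adjusted p = 0.0651 to 0.27 in those fits), and Nr4a2 lost it without TKO mouse 1 (0.0535) or TKO mouse 2 (0.0589).

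Many more genes passed when a wt pair was left out. Without wt mice 1 and 2, 7 of the 8 genes passed in Zmat3-/- mice, all but Cd5, when 33% of 14107 genes did. Without wt mice 3 and 4, 7 passed, all but Egr3, when 56.1% of 14204 genes did. In these fits Nr4a1, Nr4a2, Nr4a3 and Cd69 were higher and Egr1 and Egr2 lower in Zmat3-/- mice: the log2FC was 0.93 to 1.34 for Nr4a1, 0.41 and 0.67 for Nr4a3, -0.43 and -0.26 for Egr1, and -0.47 and -0.70 for Egr2. In TKO mice 4 genes passed without wt mice 1 and 2, against 8.15% of genes, and 6 passed without wt mice 3 and 4, against 43.6%. The opposite signs of the Nr4a and Egr genes were therefore present against either wt pair.

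**Figure D3:**
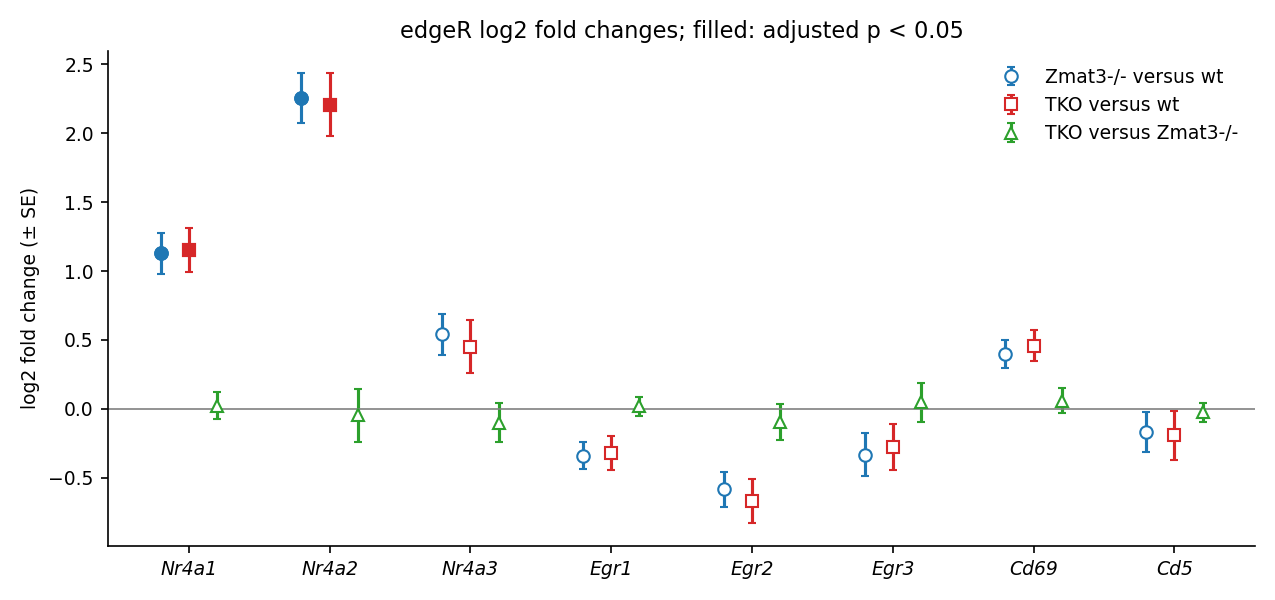
The log2FC ± SE of the 8 genes (y axis) in the 3 comparisons, with filled symbols where the adjusted p was under 0.05. Nr4a1 and Nr4a2 are filled against wt mice, the 3 Egr genes lie between -0.67 and -0.28 against wt mice, and all points of TKO against Zmat3-/- mice lie between -0.10 and 0.06.

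The same levels can be given as ratios of counts inside single libraries, which need no scaling between mice. These ratios restate the opposite log2FC of the chosen genes and are a description, with no share over other gene pairs computed. The ratio of Nr4a1 to Egr1 counts was 1.25, 1.22, 0.837 and 0.798 in wt mice 1 to 4. It was 2.82, 3.07, 2.24 and 3.1 in Zmat3-/- mice 1 to 4 and 2.92, 2.86 and 2.66 in TKO mice 1 to 3. Every knockout mouse thus had over 2 counts of Nr4a1 for each of Egr1, and no wt mouse did. Nr4a2 to Egr2 ran from 0.11 to 0.153 among wt mice, from 0.714 to 1.14 among Zmat3-/- mice and from 0.729 to 1.27 among TKO mice. Nr4a3 to Egr3 ran from 1.31 to 1.63 among wt mice, from 2.49 to 2.83 among Zmat3-/- mice and from 2.12 to 2.74 among TKO mice. In all 3 ratios the knockout mice lay above the wt mice.

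Within a family the members kept different proportions. Nr4a1 to Nr4a2 was 27.2 to 41.5 among wt mice, 13.2 to 19.5 among Zmat3-/- mice and 13.4 to 21.2 among TKO mice, so the ratio was lower in every knockout mouse than in any wt mouse. Egr1 to Egr2 was 3.75 to 5.34 among wt mice, 4.84 to 5.79 among Zmat3-/- mice and 5.02 to 6.42 among TKO mice, and these ranges overlapped. Cd69 to Cd5 was 0.183 to 0.3 among wt mice, 0.302 to 0.363 among Zmat3-/- mice and 0.309 to 0.398 among TKO mice. That separation was narrow, since wt mouse 4 reached nearly the lowest knockout mouse. The ratios were chosen after the single genes were seen and were not tested.

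The opposite direction of the family means lay between genotypes, and the pairs varied in sign among mice of the same genotype. Over all 11 mice, Pearson's r of log2 CPM in the 9 Nr4a and Egr pairs ran from -0.87 (Nr4a2 with Egr2) to 0.02 (Nr4a3 with Egr3). It was -0.77 for Nr4a1 with Egr1, -0.45 for Nr4a1 with Egr3 and -0.34 for Nr4a3 with Egr1, and it was 0.95 for Nr4a1 with Nr4a2. With each genotype centred on its own mean, the same pairs ran from -0.57 (Nr4a2 with Egr1) to 0.85 (Nr4a3 with Egr3), with Nr4a3 with Egr1 at 0.61 and Nr4a1 with Egr2 at 0.55. Nr4a1 with Nr4a2 was then at 0.09 and Nr4a2 with Nr4a3 at -0.23. These r describe 11 libraries that share the genotype differences and the wt split, and they were not tested.

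**Figure D4:**
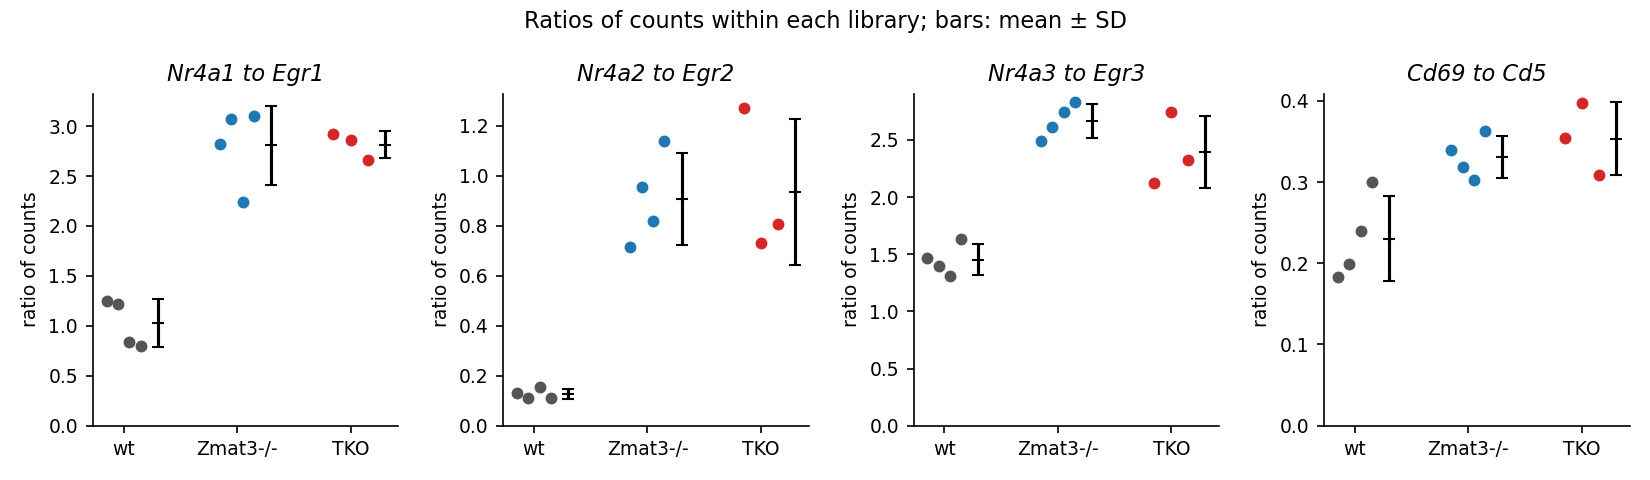
Ratios of the counts of gene pairs within each library (y axes, from 0) by genotype, with mean ± SD beside the points. The 3 Nr4a to Egr ratios are higher in all 7 knockout mice than in any wt mouse, and the Cd69 to Cd5 ratio separates only narrowly.

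Between the knockouts, loss of Puma and p21 on top of Zmat3 came with no detectable difference in any of the 8 genes. All 8 ranges overlapped, where 5.58% of 13124 genes did not. With edgeR 0 of the 8 passed, where 0.221% of genes did, 0 had an unadjusted p under 0.05, where 4.5% did, 0 passed both thresholds of a differentially expressed gene, where 0.122% did, and DESeq2 called 0, where it called 0.556% of genes. With the block (0.16% of genes) and with 1 surrogate variable (0.267%), edgeR called 0 of the 8 too, as it did with the Xist level (0.206%) and with all 11 mice in 1 fit (0.122%). The log2FC of TKO against Zmat3-/- mice ran from -0.10 for Nr4a3 to 0.06 for Cd69. The 95% interval was -0.20 to 0.24 for Nr4a1, -0.48 to 0.38 for Nr4a2 and -0.14 to 0.17 for Egr1. Over the 8 genes the intervals reached no further than -0.48 and 0.38, so a difference the size of the Nr4a1 or Nr4a2 rise lay outside the interval of each gene.

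Per kilobase of annotated exon (RPKM, the CPM divided by the length of all exons joined), the order of the genes in wt mice was that of the CPM. In wt mice the mean level was 48.0 for Cd5, 26.0 for Nr4a1, 20.2 for Egr1, 8.16 for Cd69 and 5.94 for Egr2, and then 3.21 for Nr4a3, 3.00 for Egr3 and 0.624 for Nr4a2. Nr4a1 and Egr1 overlapped in wt mice (22.1 to 30.6 and 17.3 to 23.3 RPKM), as did Nr4a3 and Egr3 (2.45 to 3.91 and 2.27 to 3.33 RPKM). In Zmat3-/- mice Nr4a1 came first per length, although not in CPM (59.7 ± 7.48, SD, n = 4), above Cd5 (44.8 ± 1.78, SD, n = 4). Nr4a2 reached 3.12 ± 0.581 RPKM (SD, n = 4) there and its mean passed that of Egr3 (2.49 ± 0.382, SD, n = 4), as it did in CPM, although their ranges overlapped. In TKO mice Nr4a1 was at 61.1 ± 1.40 RPKM and Nr4a2 at 3.03 ± 0.722 RPKM (SD, n = 3).

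No gene of the 5 TCR pathway and selection lists passed in edgeR's main fit, and the counts moved with the setting. With 1 surrogate variable, when 37.7% and 14% of all genes passed in Zmat3-/- and TKO mice, edgeR called 8 of the 11 calcineurin, NFAT and MEF2 genes higher and 1 lower in Zmat3-/- mice, and 4 higher and 0 lower in TKO mice. It then called 5 of the 14 RAS, ERK and SRF genes higher and 1 lower, and 2 higher and 0 lower. Of the strong signal genes it called 4 higher and 3 lower, and 3 higher and 0 lower. Of the positive selection genes it called 1 higher and 5 lower, and 2 higher and 3 lower, and of the partners 2 higher and 0 lower in each knockout. The values that follow are of the main fit. The shares over all genes, to be read beside each list's counts, were 16.1% and 10.3% with an unadjusted p under 0.05 and 8.04% and 2.87% called by DESeq2 in Zmat3-/- and TKO mice, and a count near them is not a result about a list. The calcineurin, NFAT and MEF2 list had 0 of 11 genes past the threshold of edgeR in either knockout, and 2 and 3 genes with an unadjusted p under 0.05 in Zmat3-/- and TKO mice (16.1% and 10.3% of all genes). DESeq2 called 1 and 0 of them (8.04% and 2.87%). The median log2FC was 0.25 and 0.27, against -0.03 and -0.04 over all genes tested. Nfatc2, which encodes an NFAT protein, had the smallest p in Zmat3-/- mice (31.1 to 34.9 against 16.8 to 30.8 CPM, log2FC 0.40, SE 0.17, edgeR adjusted p = 0.302). Nfatc1, another of them, had it in TKO mice (68.6 to 87.2 against 40.9 to 65.5 CPM, log2FC 0.41, SE 0.162, edgeR adjusted p = 0.447).

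The RAS, ERK and SRF list had 0 of 14 genes past the threshold of edgeR in either knockout, 1 gene with an unadjusted p under 0.05 in each, and 1 and 0 by DESeq2. Its median log2FC was 0.07 and 0.13. Srf itself, which encodes the factor that binds the CArG box, had the smallest p in both (55.8 to 60.2 CPM in Zmat3-/- and 54.7 to 70.4 CPM in TKO against 41.0 to 48.9 CPM in wt mice). Its log2FC was 0.30 (SE 0.0924, edgeR adjusted p = 0.172) and 0.40 (SE 0.139, edgeR adjusted p = 0.426). Its levels were higher in all knockout mice, while those of Egr2 were lower. A link between these genes was not tested.

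Among partners and relatives, such as the EGR co-repressors Nab1 and Nab2, the EGR target Id3 and the RXR partners of NR4A proteins, 5 of 6 genes were tested and 0 passed in either knockout by edgeR. Unadjusted, 2 and 1 had a p under 0.05, and DESeq2 called 2 and 0. The median log2FC was 0.10 and -0.03, and Egr4 was too low to test. Rxra had the smallest p in Zmat3-/- mice (23.3 to 32.8 against 11.6 to 19.3 CPM, log2FC 0.72, SE 0.194, edgeR adjusted p = 0.127). Nab1 had it in TKO mice (57.4 to 72.9 against 34.4 to 51.1 CPM, log2FC 0.51, SE 0.152, edgeR adjusted p = 0.353).

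The genes of strong TCR signals and negative selection did not pass either: 0 of 12 by edgeR in both knockouts, with 2 and 1 at an unadjusted p under 0.05 and 1 in each by DESeq2. Their median log2FC was -0.03 and 0.05. Bcl2l11, which encodes the pro-apoptotic protein BIM, had the smallest p of the list in all 3 comparisons. It stood at 68.1 to 103 CPM among wt mice, 121 to 136 CPM among Zmat3-/- mice and 150 to 172 CPM among TKO mice, with no overlap between the 3 genotypes. Its log2FC was 0.50 (SE 0.119, edgeR adjusted p = 0.103) in Zmat3-/- and 0.78 (SE 0.15, edgeR adjusted p = 0.138) in TKO mice against wt mice, and 0.28 (SE 0.0781, edgeR adjusted p = 0.615) between the knockouts.

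Of the positive selection and maturation genes, 0 of 14 passed by edgeR in either knockout, 3 and 2 had an unadjusted p under 0.05, and DESeq2 called 1 in each. The median log2FC was -0.05 and -0.06. Cd27, a costimulatory receptor of maturing T cells, had the smallest p in both and was lower (284 to 322 CPM in Zmat3-/- and 300 to 331 CPM in TKO against 364 to 405 CPM in wt mice). Its log2FC was -0.42 (SE 0.104, edgeR adjusted p = 0.112) and -0.37 (SE 0.135, edgeR adjusted p = 0.426).

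The list in which genes passed was that of the other immediate-early genes, which many stimuli besides the TCR induce. Of these 16 genes, 5 rose and 0 fell in each knockout in the main fit, when 0.763% and 0.294% of all genes passed, and the median log2FC was 1.13 in Zmat3-/- and 1.19 in TKO mice. Fosb, an AP-1 subunit, was at 1.99 to 4.23 CPM in wt and 23.8 to 47.1 CPM in Zmat3-/- mice (log2FC 3.73, SE 0.326, edgeR adjusted p = 0.00226). Sik1, a kinase gene induced by cAMP, was at 12.3 to 19.5 CPM in wt and 113 to 138 CPM in Zmat3-/- mice (log2FC 2.90, SE 0.143, edgeR adjusted p = 0.00011). Klf4, a zinc finger factor, had a log2FC of 2.89 (SE 0.205, edgeR adjusted p = 0.000752), and Dusp1, a phosphatase gene that turns off MAP kinases, of 2.29 (SE 0.285, edgeR adjusted p = 0.0148). In TKO mice the log2FC was 3.84 for Fosb, 3.09 for Sik1, 3.05 for Klf4 and 2.37 for Dusp1. Klf6, another zinc finger factor and the last to pass, rose by a log2FC of 1.13 and 0.97 (it was named after its values were seen).

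Fos, Jun and Junb, AP-1 subunits too, had large log2FC in Zmat3-/- mice that did not pass (3.23, 2.53 and 2.31, edgeR adjusted p = 0.121, 0.131 and 0.132). Atf3 had a log2FC of 1.125 and 1.402 in Zmat3-/- and TKO mice, and Zfp36 of 0.529 and 0.455. Ier2 had one of 0.415 and 0.309 and Ier5 of 0.381 and 0.438, and none of these genes passed either. The remaining genes of the list had a log2FC near or below 0. Jund had a log2FC of 0.04 and 0.03 and Nfkbia of -0.05 and -0.02, while Btg2 had a negative one (338 to 387 CPM in the knockouts against 450 to 500 CPM in wt mice, log2FC -0.45 and -0.50, edgeR adjusted p = 0.0796 and 0.326). Myc, a growth regulator, had the most negative of the list (30.6 to 43.0 CPM in the knockouts against 39.4 to 74.6 CPM in wt mice, log2FC -0.61 and -0.64, edgeR adjusted p = 0.249 and 0.454). These genes were named after their values were seen. DESeq2 called 8 of the 16 genes higher and 1 lower in Zmat3-/- mice, and 7 higher and 1 lower in TKO mice (8.04% and 2.87% of all genes). With 1 surrogate variable edgeR called 13 higher and 2 lower, and 13 higher and 1 lower (37.7% and 14%), and with all 11 mice in 1 fit 5 higher and 1 lower in each (1.77% and 1.63%). With the block, 3 and 1 of the 16 genes passed (0.0889% and 0.121% of all genes). Without wt mice 1 and 2, 15 and 14 passed (33% and 8.15% of all genes), and without wt mice 3 and 4, 12 and 11 (56.1% and 43.6%). Single mice left out gave 3 to 5 for Zmat3-/- mice and 1 to 5 for TKO mice: for the former 3 without Zmat3-/- mouse 1, 2 or 4, and for the latter 3 without wt mouse 2, 3 or 4 or TKO mouse 2, 2 without TKO mouse 3 and 1 without TKO mouse 1.

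**Figure D5:**
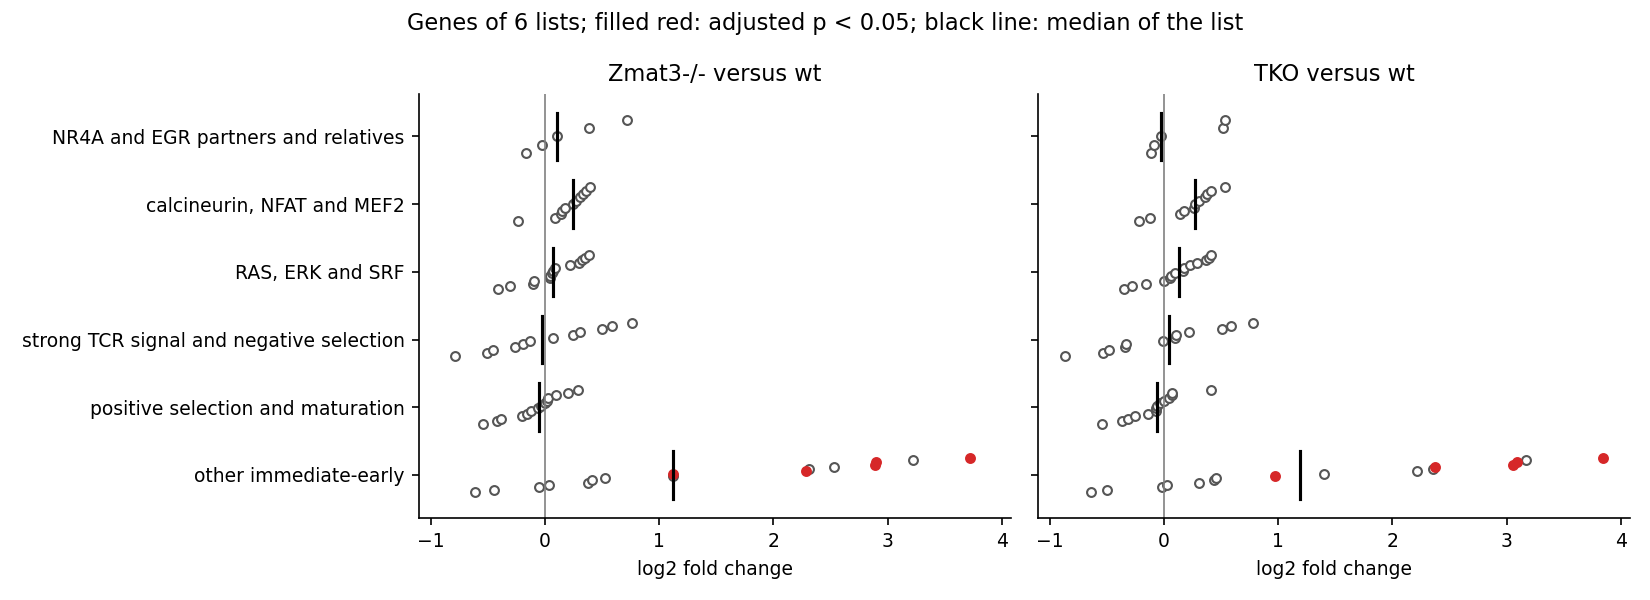
The log2FC (x axis) of each gene in 6 lists for Zmat3-/- against wt mice (left) and TKO against wt mice (right), with a black line at the median of a list and red points where the adjusted p was under 0.05. The 5 red points of each panel are all in the list of other immediate-early genes.

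Heat shock genes, which cells raise under stress, moved with the Nr4a genes in sign. All 6 had a positive log2FC in both knockouts, with a median of 0.57 and 0.86, yet 0 passed in edgeR's main fit, 4 and 2 had an unadjusted p under 0.05 (16.1% and 10.3% of all genes) and DESeq2 called 1 in each (8.04% and 2.87%). With 1 surrogate variable edgeR called 5 of the 6 higher and 0 lower in each knockout (37.7% and 14%). Their summed level was 1330 to 2340 CPM among wt mice, 2190 to 3080 CPM among Zmat3-/- mice and 2190 to 3340 CPM among TKO mice, and that of the other immediate-early genes was 1100 to 1940, 2260 to 2710 and 2350 to 2670 CPM. Wt mice 1 and 2 had the higher wt sums in both lists, and also the higher wt levels of Nr4a1. Nr4a2 did not follow this split, and Nr4a3 was lowest in wt mouse 1 and highest in wt mouse 4. The part of such genes in the Nr4a result was not tested.

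Thymocyte markers were abundant in every mouse. All 14 thymocyte genes were counted in each, with a summed level of 13900 to 16900 CPM among wt mice, 14200 to 16100 CPM among Zmat3-/- mice and 15200 to 17600 CPM among TKO mice. In each knockout 11 of the 14 had a negative log2FC and 3 a positive one. The median was -0.25 in Zmat3-/- and -0.18 in TKO mice, against -0.03 and -0.04 over all genes tested. Rag1, with means of 3490, 4450 and 4940 CPM in wt, Zmat3-/- and TKO mice, was among the positive ones. Of the markers of other cells, the 6 B cell genes summed to 491 to 812, 485 to 518 and 497 to 543 CPM, with wt mice 1 and 2 highest. The 7 myeloid genes summed to 147 to 230, 189 to 258 and 124 to 286 CPM, and the 6 thymic epithelial genes to 57.5 to 150, 90.0 to 126 and 56.5 to 115 CPM. The 7 genes of fibroblasts and endothelium, of which 5 were tested in Zmat3-/- against wt mice, summed to 135 to 137, 135 to 152 and 130 to 141 CPM. Most of the sum came from Pecam1 (99.1 to 132 CPM over all mice). Cdh5 of the same list had only 0.309 to 1.16 CPM in wt and 0.688 to 1.75 CPM in TKO mice. The list's median log2FC was 1.02 in Zmat3-/- and 0.78 in TKO mice, positive like that of the Nr4a genes. The collagen gene Col3a1, with the smallest p of the list in Zmat3-/- mice, had 7.29 to 9.94 CPM in Zmat3-/- and 1.11 to 12.8 CPM in TKO against 1.76 to 5.13 CPM in wt mice (log2FC 1.30 and 1.09, edgeR adjusted p = 0.103 and 0.61). The 5 erythroid genes varied most, from 607 to 5990 CPM in wt mice alone. No marker was at 0 in any mouse. In edgeR's main fit 0 genes of these 6 lists passed in any comparison, the most at an unadjusted p under 0.05 being 3 of the 14 thymocyte genes in Zmat3-/- mice, against 16.1% of all genes, of which Cd3e had the smallest p (log2FC -0.47, SE 0.109, edgeR adjusted p = 0.0966). DESeq2 called 3 thymocyte genes, 2 fibroblast and endothelial genes, 1 myeloid gene and 1 thymic epithelial gene there, when it called 8.04% of all genes, and 0 in TKO against wt or Zmat3-/- mice. With 1 surrogate variable edgeR called 1 thymocyte gene higher and 7 lower in Zmat3-/- mice, 2 B cell genes lower, 2 myeloid genes higher, 2 thymic epithelial genes higher and 2 lower, and 2 fibroblast and endothelial genes higher, when 37.7% of all genes passed. In TKO against wt mice, when 14% passed, it called 1 thymocyte gene higher and 1 lower. The part of these cells in the results was not tested.

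In its pattern over the 11 mice, the mean of the 3 Nr4a genes was matched best by Sept7 (Pearson r 0.986), Armcx2 (0.982) and Dnajb9 (0.98), among 12949 other genes. The mean of the 3 Egr genes was matched best by Gm11696 (0.963), Tepsin (0.928) and Nxnl1 (0.928). For Cd69 these were Fbxo33 (0.967), ENSMUSG00000118423.1 (0.966) and Plaa (0.953), and for Cd5 they were Dnajc4 (0.951), Pgam5 (0.951) and Mrps27 (0.949). With each genotype centred on its own mean, the genes closest to the 4 profiles were others: Slc7a8 (0.948), Plod3 (0.936), Trav7d-4 (0.938) and Ngrn (0.98). These values describe 11 libraries that share their genotype differences and the split of the wt mice, and they were not tested.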

How the data were processed

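RNA of thymocytes from 11 mice was made into libraries with a kit that does not mark the strand and sequenced in pairs. According to the study's methods and processing notes, the authors quantified the reads with Salmon on GRCm38.p6 and deposited the estimated counts per gene for each mouse, without normalization. All 598598 values were whole numbers, so rounding changed none. Names and positions came from GENCODE M21, where 54166 of the 54418 Ensembl identifiers were found. Depth and precision are given in the report as counts. The labels gave each mouse's genotype and number.

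For each pair of genotypes, TMM scaling and the two-sided quasi-likelihood test of edgeR 4.0.16 in R 4.3.3 were used, with Benjamini-Hochberg adjustment over all genes tested. A gene was tested if the CPM equal to 20 counts of the smallest library was reached by a number of mice no lower than the size of the smaller genotype. Xist, chromosome Y, ribosomal RNA and immunoglobulin pseudogenes were left out. The SE is the absolute log2FC over the square root of F, and 95% intervals use its degrees of freedom. The 8 genes and the gene lists were chosen with earlier results of these data known. From a list with called genes, the 4 with the largest absolute log2FC were named, and otherwise the gene with the smallest p. The study used DESeq2 with sex and surrogate variables, and the labels give no sex. DESeq2 1.42.0, 1 surrogate variable (sva 3.50.0), the Xist level as a number, RLE size factors, other filters, all 11 mice in 1 fit, the replicate block and each mouse left out were alternatives. The script was tested on simulated data. The numbers in the labels were checked as pairs: deviations from the genotype means correlated at 0.127 to 0.338 between Zmat3-/- and wt mice of the same number, over 0.1 in all 4 pairs, so they were taken as paired there. Other pairs within mice 1 and 2 or within mice 3 and 4 correlated as much, at 0.157 to 0.377, so the values show a split into these sets and do not single out the numbers. The labels and methods do not say what the numbers share, but Xist was high in wt and Zmat3-/- mice 1 and 2 and low in mice 3 and 4 of both. Wt pairs left out were added after the data were seen. Sequences came from RefSeq on GRCm38.p6.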

Additional observations from a re-analysis of the deposited data

How the results depend on the processing

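Of the 8 genes, 2 passed in Zmat3-/- against wt mice. With DESeq2 6 passed and with 1 surrogate variable 6, without wt mice 1 and 2 7 and without wt mice 3 and 4 7, and with the replicate block 0. Each mouse left out gave 1 to 2. In TKO against wt mice 2 passed, with DESeq2 4, with 1 surrogate variable 5, without wt mice 1 and 2 4, without wt mice 3 and 4 6, and with the replicate block 0. Each mouse left out gave 0 to 2. The shares of all genes that passed moved too: in Zmat3-/- against wt mice 8.04% with DESeq2, 37.7% with the surrogate variable and 0.0889% with the block. The cause was not tested. Between the knockouts 0 passed in every fit run. The blocked adjusted p in TKO mice was 0.187 for Nr4a1 (log2FC 1.12) and 0.0935 for Nr4a2 (log2FC 2.11). Same-numbered TKO and wt mice correlated at 0.0739 to 0.406, and TKO and Zmat3-/- mice at 0.0113 to 0.194, so the numbers were not taken as pairs there.

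Against wt mice, the sign of 7 genes was kept in every fit run and that of Cd5 turned to 0.087 (Zmat3-/-) and 0.07 (TKO) without wt mice 1 and 2. Between the knockouts, signs of log2FC near 0 turned. With the block Nr4a2 was at 0.076, Egr1 at -0.009 and Cd5 at 0.011, and with the surrogate variable Nr4a2 was at 0.031. With single mice left out, Nr4a1 ran from -0.054 (without Zmat3-/- mouse 3) to 0.073, Nr4a2 from -0.285 to 0.118 (without TKO mouse 3), Nr4a3 from -0.251 to 0.017 (without TKO mouse 1), Egr1 from -0.009 (without Zmat3-/- mouse 4) to 0.062, Egr3 from -0.04 (without Zmat3-/- mouse 3) to 0.13 and Cd5 from -0.061 to 0.034 (without TKO mouse 2).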
